A study of Mus musculus with 8 samples.

Results

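The antiviral genes Isg15, Usp18, Ifit1, Ifit3, Ifi27l2a, Ifi35 and Irf7, which type I interferon is known to induce, were followed through the colon of 2 mouse strains with and without Il10. They are a list of 7 genes, read by every probe set that the platform annotation gives to one of them. This gave 8 of the 12422 probe sets on the array, with 2 for Irf7 and 1 for each of the other genes, and all 8 passed the filter on low values that 7454 probe sets passed.

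The study asked how loss of interleukin 10, a cytokine that holds back inflammatory responses, changes colon expression on 2 strain backgrounds. Total colon RNA from pooled animals was hybridised to Affymetrix MG_U74Av2 arrays, with an array for each of 8 pools. The 4 groups had 2 pools each, which the labels number sample 1 and sample 2. C3H/HeJBir-Il10tm1Cgn mice, called C3H/HeJBir Il10-null below, carried the targeted Il10 allele on the C3H/HeJBir strain and were set against unmodified C3H/HeJBir mice. C57BL/6J-Il10tm1Cgn mice, called C57BL/6J Il10-null, carried the same allele on C57BL/6J and were set against unmodified C57BL/6J mice. Sample 1 of C3H/HeJBir Il10-null combined 5 animals, the other C3H/HeJBir pools 4 each and all C57BL/6J pools 5 each, at 7 µg of RNA per animal. An age of 4 weeks is stated for sample 2 of C57BL/6J wild type, while the labels state no other age, sex or treatment. A pool is an average over its animals, so every p-value below measures the spread between pools, not between animals.

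Median intensity lay between 50.1 and 62.2 on the 8 arrays, with precision limited by their number. Sample 1 of C3H/HeJBir Il10-null stood somewhat apart, with a mean Spearman correlation of 0.915 with the other 7 pools, where those had 0.932 to 0.945. The sample 1 Il10-null pools were hybridised on one day, the sample 1 wild-type pools on another, and all sample 2 pools together on the third, so genotypes share a day only among sample 2 pools and strains share a day throughout. Xist, expressed from the inactive X chromosome, read 243 to 452 in sample 1 pools and 2.84 to 12.9 in sample 2 pools. Xist therefore moved with the sample number, as the day did in part, and medians of gene lists are given below for each sample number. Eif2s3y, a Y chromosome gene, read 256 to 411 in sample 2 pools. In sample 1 Il10-null and wild-type pools it read 242 and 318 in C3H/HeJBir, and 113 and 39.7 in C57BL/6J. The dimmer Uty (27.5 to 57.1) and Kdm5d (35.7 to 105) did not separate the sample numbers. The part of sex in the differences below was not tested. The colon epithelial markers Car1 (6956 to 8533), Lgals4 (9318 to 11456) and Krt20 (3992 to 7558) were bright in every pool. Il10 itself, on chromosome 1, read 28.3 and 35.4 in C3H/HeJBir Il10-null pools against 5.43 and 10.9 in C3H/HeJBir wild type, and 51.7 and 22.0 in C57BL/6J Il10-null pools against 9.70 and 7.34 in C57BL/6J wild type. Its mean over the pools, 21.3, lay below the filter and, since the position of the probes relative to the targeted change is not given, the values check no label. None of the 7 antiviral genes lies on chromosome 1.

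Type I interferons, the interferon alpha proteins and interferon beta, bind a receptor made of Ifnar1 and Ifnar2 and signal through the kinases Jak1 and Tyk2. A transcription factor complex that contains Irf9 then binds interferon-stimulated response elements in promoters and switches on a large set of antiviral genes. Interferon gamma has its own receptor and acts mainly at gamma-activated sites, and the target sets of the interferon types overlap. In the gut, antiviral genes are known to keep a low activity without overt infection.

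Promoter sequence was taken from RefSeq for assembly GRCm38.p6, where 5 of the 7 genes had an entry. It is shown as background, and its part in how the genes varied across pools was not tested. The core of the interferon-stimulated response element, written as GAAA followed after any 2 bases by GAAA again, was searched on both strands in the 250 bases before the listed start and found in 3 of these 5 promoters, those of Isg15, Ifit1 and Ifit3. It was present in 978 of all 32851 promoters of that length (2.98%), and 59 (0.180%) held at least 2 matches, as each of the 3 did. Below, capitals mark the matched letters within 60 bases, 5′ to 3′ on the gene's strand.
Isg15, chr4:156200856-156200915, minus strand, 97 to 38 bases before the start: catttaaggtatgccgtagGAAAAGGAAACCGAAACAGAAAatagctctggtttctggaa
Ifit1, chr19:34640769-34640828, plus strand, 120 to 61 bases before the start: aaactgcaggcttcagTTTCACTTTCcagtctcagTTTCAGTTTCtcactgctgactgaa
Ifit3, chr19:34583365-34583424, plus strand, 164 to 105 bases before the listed start: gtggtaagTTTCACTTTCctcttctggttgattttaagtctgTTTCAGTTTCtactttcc
The 3 matches of Isg15 overlap one another, whereas the 2 of Ifit1 and the 2 of Ifit3 are separate and lie on the opposite strand. For Ifit3 the listed start is an alternative one inside the annotated gene. No match was found in the windows of Ifi35 and Irf7, which says only that these letters are not there. The gamma-activated site core TTCNNNGAA, in 2306 of all promoters (7.02%), was found in none of the 5. Among the other genes on the antiviral and interferon gamma lists used below, 19 of 55 with an entry held the response element core. Usp18 and Ifi27l2a are named only.

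Values below are deposited intensities of single pools, with the sample 1 pool before the sample 2 pool. Differences are log2 values from limma with their SE, on the scale log2(intensity + 11.07), and this constant understates the change of dim genes. Whole tissue was measured, so fewer cells of a type and less RNA per cell cannot be told apart.

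Isg15 encodes a ubiquitin-like protein that is attached to other proteins and is also released from cells. It read 513 and 118 in C3H/HeJBir Il10-null pools, against 773 and 624 in C3H/HeJBir wild type. It read 156 and 260 in C57BL/6J Il10-null pools, against 119 and 159 in C57BL/6J wild type. The C3H/HeJBir wild-type pools were the brightest 2 of 8, and sample 2 of C3H/HeJBir Il10-null was about as dim as the dimmest C57BL/6J pool. Between wild types the difference was 2.25 ± 0.58, or 4.75-fold, higher in C3H/HeJBir (limma adjusted p = 0.325). In C3H/HeJBir, Il10-null pools were lower than wild type by a log2 value of -1.44 ± 0.58 (limma adjusted p = 0.999), with -0.58 for sample 1 and -2.29 for sample 2. In C57BL/6J the corresponding difference was 0.52 ± 0.58, and the pools overlapped.

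Usp18 removes Isg15 from proteins and also blocks signalling at the interferon receptor. It read 198 and 49.3 in C3H/HeJBir Il10-null pools, against 147 and 166 in C3H/HeJBir wild type. It read 49.3 and 89.5 in C57BL/6J Il10-null pools, against 46.1 and 49.4 in C57BL/6J wild type. The brightest pool was here sample 1 of C3H/HeJBir Il10-null, while the sample 2 pool of that group sat at the C57BL/6J level. The wild-type strains did not overlap and differed by 1.51 ± 0.52, or 2.84-fold (limma adjusted p = 0.658). The Il10-null minus wild-type difference was -0.57 ± 0.52 in C3H/HeJBir, with 0.41 for sample 1 and -1.55 for sample 2, and 0.41 ± 0.52 in C57BL/6J. Both pairs of groups overlapped.

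Ifit1 encodes a protein that binds RNA lacking the cap methylation of host messages and blocks its translation. It read 322 and 196 in C3H/HeJBir Il10-null pools, against 488 and 600 in C3H/HeJBir wild type. It read 100.5 and 213 in C57BL/6J Il10-null pools, against 105 and 203 in C57BL/6J wild type. The C3H/HeJBir wild-type pools were again the brightest, and within C57BL/6J the sample 2 pool of each genotype was about as far above its sample 1 pool. The wild-type strains differed by 1.81 ± 0.43, or 3.50-fold (limma adjusted p = 0.253). The Il10-null minus wild-type difference was -1.07 ± 0.43 in C3H/HeJBir, without overlap (limma adjusted p = 0.999), and 0.00 ± 0.43 in C57BL/6J.

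Ifit3 encodes a partner of Ifit1 in a complex of these RNA-binding proteins. It read 138 and 34.1 in C3H/HeJBir Il10-null pools, against 198 and 130 in C3H/HeJBir wild type. It read 56.3 and 57.6 in C57BL/6J Il10-null pools, against 74.8 and 41.4 in C57BL/6J wild type. Sample 2 of C3H/HeJBir Il10-null was the dimmest of all, and its sample 1 pool lay between the 2 wild-type pools. The wild-type strains differed by 1.36 ± 0.52, or 2.57-fold, without overlap (limma adjusted p = 0.784). The Il10-null minus wild-type difference was -1.07 ± 0.52 in C3H/HeJBir and 0.02 ± 0.52 in C57BL/6J, with overlap in both strains. The C57BL/6J value averages -0.35 for sample 1 and 0.39 for sample 2.

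Ifi27l2a encodes a small membrane protein of the interferon-inducible Ifi27 family. It read 198 and 184 in C3H/HeJBir Il10-null pools, against 471 and 412 in C3H/HeJBir wild type. It read 142 and 183 in C57BL/6J Il10-null pools, against 170 and 119 in C57BL/6J wild type. Its C3H/HeJBir pools formed tight pairs that lay far apart, with means of 190.9 ± 9.40 in Il10-null and 441.6 ± 41.4 in wild type (SD, n = 2 each). The wild-type strains differed by 1.56 ± 0.26, or 2.94-fold (95% interval of the log2 difference 0.96 to 2.15; limma adjusted p = 0.0635). The Il10-null minus wild-type difference in C3H/HeJBir was -1.16 ± 0.26 (95% interval -1.76 to -0.57; limma adjusted p = 0.999), with -1.21 for sample 1 and -1.12 for sample 2. In C57BL/6J it was 0.17 ± 0.26, with -0.25 for sample 1 and 0.58 for sample 2. Ifi27l2a was the gene whose C3H/HeJBir difference varied least between sample numbers.

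Ifi35 encodes a cytoplasmic protein with interferon-induced expression that takes part in innate immune signalling. It read 304 and 167 in C3H/HeJBir Il10-null pools, against 294 and 242 in C3H/HeJBir wild type. It read 148 and 153 in C57BL/6J Il10-null pools, against 181 and 144 in C57BL/6J wild type. All wild-type C3H/HeJBir values lay above all C57BL/6J values, and both genotype comparisons overlapped. The wild-type strains differed by 0.68 ± 0.31 (limma adjusted p = 0.903), and the Il10-null minus wild-type differences were -0.23 ± 0.31 in C3H/HeJBir and -0.09 ± 0.31 in C57BL/6J. Both changed sign between sample numbers, with 0.05 and -0.51 in C3H/HeJBir and -0.27 and 0.08 in C57BL/6J.

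Irf7 is the transcription factor that amplifies production of interferon alpha and is itself induced by interferon. Its brighter probe set read 431 and 340 in C3H/HeJBir Il10-null pools, against 685 and 484 in C3H/HeJBir wild type. It read 241 and 349 in C57BL/6J Il10-null pools, against 351 and 462 in C57BL/6J wild type. Irf7 was the only one of the 7 whose Il10-null pools lay below the wild-type pools without overlap in both strains, although in C57BL/6J the margin was about 2 intensity units. The Il10-null minus wild-type difference was -0.58 ± 0.30 in C3H/HeJBir and -0.46 ± 0.30 in C57BL/6J (95% interval -1.14 to 0.23; limma adjusted p = 1.00). The wild-type strains differed by 0.50 ± 0.30, with 0.94 for sample 1 and 0.07 for sample 2 (limma adjusted p = 1.00). The second probe set, whose _f_at suffix marks probes that may be shared with related sequences, read 71.4 to 178. It followed the first with a Pearson correlation of 0.948 over the 8 pools, but its pools overlapped in each genotype comparison and between wild-type strains, where the difference was 0.37.

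**Figure D1:**
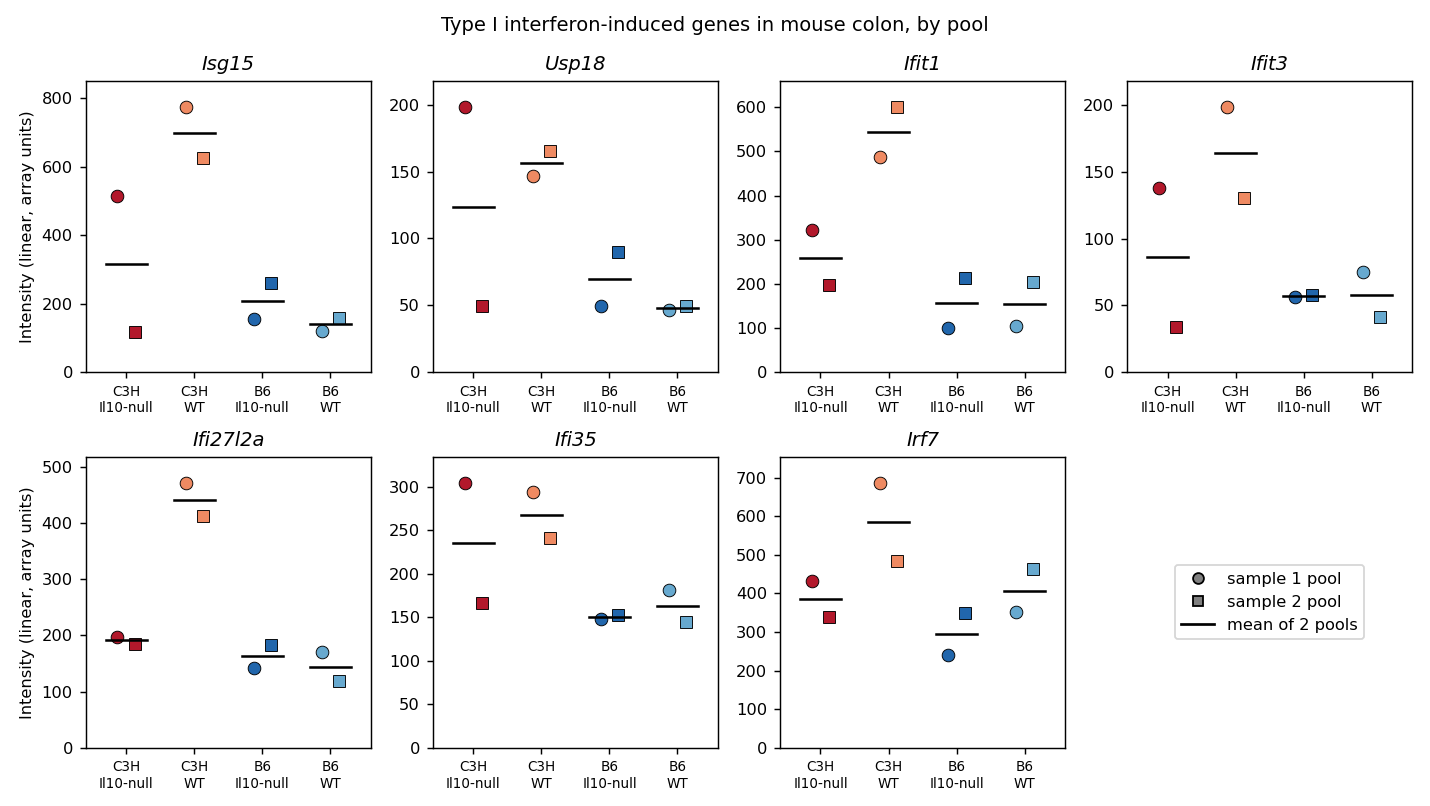
Intensity of each gene (linear axis from 0, arbitrary units) in C3H/HeJBir Il10-null, C3H/HeJBir wild type, C57BL/6J Il10-null and C57BL/6J wild type, with a circle for the sample 1 pool, a square for the sample 2 pool and a line at the mean of 2 pools. C3H/HeJBir wild type has the highest mean in every panel, and the C3H/HeJBir Il10-null pools are far apart for Isg15 (513 and 118) and close for Ifi27l2a (198 and 184).

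Set in order, the mean was highest in C3H/HeJBir wild type for all 8 probe sets. It did not overlap with the next group for Isg15, Ifit1, Ifi27l2a and the brighter Irf7 probe set, and overlapped with it for Usp18, Ifit3, Ifi35 and the second Irf7 probe set. The next group was C3H/HeJBir Il10-null, except for Irf7, where it was C57BL/6J wild type for the brighter probe set. Among the lower neighbours the pools overlapped, except between C3H/HeJBir Il10-null and C57BL/6J Il10-null for Ifi27l2a, where the margin was under 1 intensity unit.

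Between wild-type colons, all 7 genes were higher in C3H/HeJBir than in C57BL/6J, where 47.2% of the 7454 tested probe sets had a positive difference. For all 7 the pools did not overlap, against 14.0% of tested probe sets without overlap on the higher side and 17.0% on the lower side. The genes and lists were chosen with earlier results of these data known, and the 7 genes varied together. Such counts, here and in the comparisons below, are therefore descriptions. The median difference of the 7 genes was 1.51, against -0.02 over all tested probe sets, and it was 1.41 in sample 1 and 1.51 in sample 2. None of the 7 passed limma's adjusted p of 0.05, which 30 probe sets passed (0.402%), while 5 of the 7 had an unadjusted p under 0.05, against 423 of 7454 probe sets (5.67%). The calls depended on the settings. Ifi27l2a passed with the 50th percentile as the added constant (adjusted p = 0.0168), with the filter raised to the 60th percentile (0.0269), after scaling to a common median (0.0456) and with trended robust moderation (0.0189), within a range of 0.0168 to 0.429 over all alternatives. Isg15 passed when only the wild-type groups were fitted (adjusted p = 0.0174) and without either C3H/HeJBir Il10-null pool (0.0281 each), within a range of 0.0174 to 0.941.

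In C3H/HeJBir, all 7 genes had a lower mean in Il10-null than in wild-type colon. The median log2 difference was -1.07, against -0.01 over all tested probe sets. For 4 genes (Isg15, Ifit1, Ifi27l2a and Irf7) the Il10-null pools lay below the wild-type pools without overlap, against 12.0% of tested probe sets on the lower side and 11.3% on the higher side. By limma none of the 7 passed the adjusted threshold, which 1 probe set passed (0.0134%), and 3 of them (Isg15, Ifit1 and Ifi27l2a) had an unadjusted p under 0.05, against 211 probe sets (2.83%). The size was unequal between sample numbers: the median was -0.58 in sample 1, with 5 of 7 genes lower, and -1.55 in sample 2, where both genotypes shared a hybridisation day and all 7 were lower. Without sample 2 of C3H/HeJBir Il10-null the median of the 7 genes was -0.41, and Usp18 and Ifi35 had positive differences.

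In C57BL/6J, the median difference of the 7 genes between Il10-null and wild-type colon was 0.02, with 5 genes above 0 and 2 below, against -0.01 over all tested probe sets. This averages opposite signs, since the median was -0.25 in sample 1, with 5 of 7 lower, and 0.39 in sample 2, with 6 of 7 higher. Irf7 was the 1 gene without overlap, on the lower side, against 13.6% of tested probe sets on that side and 12.6% on the higher side. The limma adjusted threshold was passed by 0 of 7454 probe sets (0%), and 118 (1.58%) had an unadjusted p under 0.05, none of them from the 7 genes. The intervals remain wide: for Isg15 the 95% interval ran from -0.81 to 1.85 on the log2 scale, so these values do not show that the groups were alike.

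The Il10 differences were then compared between strains by the interaction, the C3H/HeJBir difference minus the C57BL/6J difference. It was below 0 for all 7 genes, with a median of -1.07 against -0.01 over all tested probe sets, and 5 of the 7 were at or below -0.5, against 9.12% of tested probe sets. The most negative was Isg15 at -1.96 ± 0.82 (95% interval -3.83 to -0.08), followed by Ifi27l2a at -1.33 ± 0.37 (95% interval -2.17 to -0.49). Neither passed after adjustment (limma adjusted p of 0.999 to 1.00 for all 7), and no probe set on the array did (0%), while these 2 genes were among the 111 with an unadjusted p under 0.05 (1.49%). The median was -0.14 in sample 1 and -1.70 in sample 2.

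Between Il10-null colons the median difference of C3H/HeJBir minus C57BL/6J was 0.39, all 7 were above 0, and 2 (Ifi27l2a and Ifi35) had no overlap, against 11.9% of tested probe sets on the higher side and 15.3% on the lower. The limma threshold was passed by 22 probe sets (0.295%) and an unadjusted p under 0.05 was reached by 385 (5.17%), none of them from the 7 genes. The sample numbers went apart here. In sample 1 all 7 genes were higher in C3H/HeJBir, with a median of 1.15, and in sample 2 the median was -0.12, with 5 of 7 lower. Without sample 1 of C3H/HeJBir Il10-null, the differences of Isg15, Usp18 and Ifit3 were below 0.

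**Figure D2:**
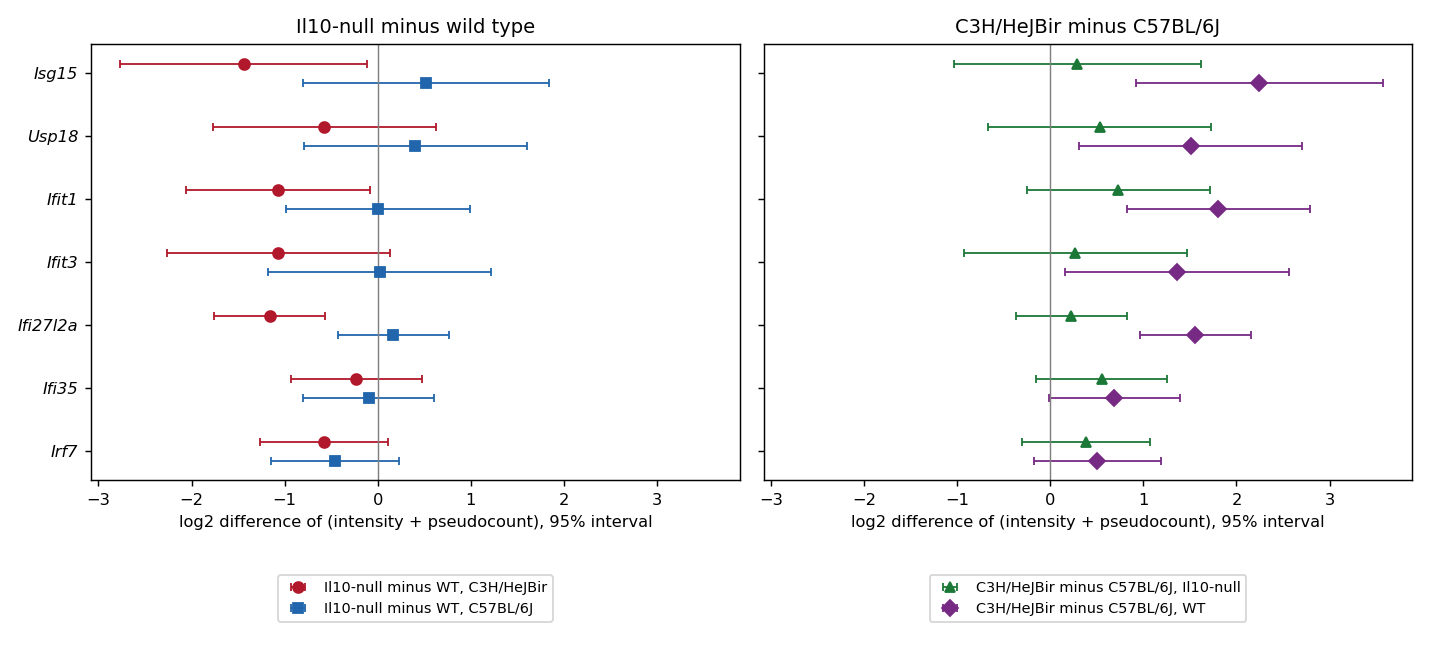
Log2 differences of the 7 genes for Il10-null minus wild type in each strain and for C3H/HeJBir minus C57BL/6J in each genotype, with 95% intervals from limma as bars. In wild type the strain differences all lie above 0 (0.50 to 2.25), the C3H/HeJBir genotype differences all lie below it (-1.44 to -0.23), and the C57BL/6J genotype differences lie on both sides (-0.46 to 0.52).

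The 7 genes varied together. Over the 8 pools their 21 pairwise Pearson correlations of log2 values ran from 0.623 (Irf7 and Usp18) to 0.952 (Isg15 and Usp18), with a median of 0.819. This is a description, since all points share the arrays and the same groups. Averaged over the 7 genes, the log2 deviation from the gene's own mean was 0.55 and -0.52 in C3H/HeJBir Il10-null pools, against 0.99 and 0.79 in C3H/HeJBir wild type. It was -0.65 and -0.17 in C57BL/6J Il10-null pools, against -0.51 and -0.48 in C57BL/6J wild type. One C3H/HeJBir Il10-null pool thus lay near the wild-type pools of its strain and the other at the level of C57BL/6J.

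Upstream in the pathway, interferon beta was read by a dim probe set. Ifnb1 read at most 49.99 in any pool and was below the filter. Of the 12 ligand, receptor and signalling genes on the array 6 were tested, with none called in any of the 5 comparisons. Over all tested probe sets, 0% to 0.402% were called in a comparison. For this list and those below, none called is thus near that share. The receptor chain Ifnar1 differed by 0.03 between wild-type strains and by -0.44 between Il10-null and wild type in C3H/HeJBir, where its pools read 11.8 and 86.1 in Il10-null, against 45.4 and 61.2 in wild type, lower in sample 1 and higher in sample 2. Of the interferon alpha genes, Ifna4 and Ifna5 passed the filter, each on a probe set that may be shared within the family. Ifna4 ranged from 8.31 to 78.8 and had the most positive interaction of this list at 1.25 ± 1.11, while Ifna5 ranged from 18.2 to 53.6 with an interaction of -0.58 ± 0.57 (limma adjusted p = 1.00 each). Ifnar2 read 21.7 to 40.5, with a mean below the filter. Irf9, the DNA-binding part of that complex, read 199 and 151 in C3H/HeJBir Il10-null pools, against 354 and 280 in C3H/HeJBir wild type. It read 190 and 238 in C57BL/6J Il10-null pools, against 205 and 150 in C57BL/6J wild type. As with the antiviral genes its mean was highest in C3H/HeJBir wild type, with a wild-type strain difference of 0.80 (limma adjusted p = 0.628) and a C3H/HeJBir genotype difference of -0.82. Of 9 sensing, adaptor and interferon regulatory factor genes on the array 8 were tested and none was called. Ifih1, a cytoplasmic sensor of double-stranded RNA, read 310 and 215 in C3H/HeJBir Il10-null pools, against 376 and 329 in C3H/HeJBir wild type. It read 287 and 266 in C57BL/6J Il10-null pools, against 229 and 236 in C57BL/6J wild type, so the Il10-null pools were the lower ones in C3H/HeJBir and the higher ones in C57BL/6J, without overlap in either. Ikbke, a kinase that activates interferon regulatory factors, read 148 and 115 in C3H/HeJBir Il10-null pools, against 58.0 and 73.1 in C3H/HeJBir wild type, an opposite order to that of the antiviral genes. Irf5, a factor of the same family as Irf7, overlapped in both genotype comparisons and had an interaction of -0.38 ± 0.76.

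Of 49 other type I interferon effectors listed, 30 were on the array and 23 were tested. Between wild-type strains 19 of the 23 were higher in C3H/HeJBir, with a median of 0.46, and 10 had no overlap on the higher side and 2 on the lower side, where 14.0% and 17.0% of all tested probe sets had none. None was called by limma, the lowest adjusted p being 0.152. Between Il10-null and wild type in C3H/HeJBir 18 of 23 were below 0 (median -0.24), with 5 not overlapping on the lower and 1 on the higher side, where all tested probe sets had 12.0% and 11.3%. The median was -0.01 in sample 1 and -0.36 in sample 2. In C57BL/6J 18 of 23 were above 0 (median 0.07). The interaction was below 0 for 21 of 23 (median -0.33), and between Il10-null strains 12 were above and 11 below 0 (median 0.06). The median interaction was -0.07 in sample 1 and -0.52 in sample 2.

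Among these effectors, Tor3a, an interferon-responsive ATPase, read 89.7 and 75.3 in C3H/HeJBir Il10-null pools, against 237 and 190 in C3H/HeJBir wild type. It read 59.8 and 83.9 in C57BL/6J Il10-null pools, against 89.6 and 80.3 in C57BL/6J wild type. The C3H/HeJBir wild-type pools stood alone, with every other pool at 89.7 or less. Lgals3bp, a secreted glycoprotein that binds galectins, read 506 and 435 in C3H/HeJBir Il10-null pools, against 939 and 608 in C3H/HeJBir wild type. It read 549 and 626 in C57BL/6J Il10-null pools, against 363 and 257 in C57BL/6J wild type, so its order of genotypes was opposite in the strains. Gbp3, a guanylate-binding protein, read 254 and 104 in C3H/HeJBir Il10-null pools, against 175 and 169 in C3H/HeJBir wild type. It read 67.3 and 177 in C57BL/6J Il10-null pools, against 50.6 and 26.3 in C57BL/6J wild type. The lowest values of Gbp3 were those of C57BL/6J wild type.

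**Figure D3:**
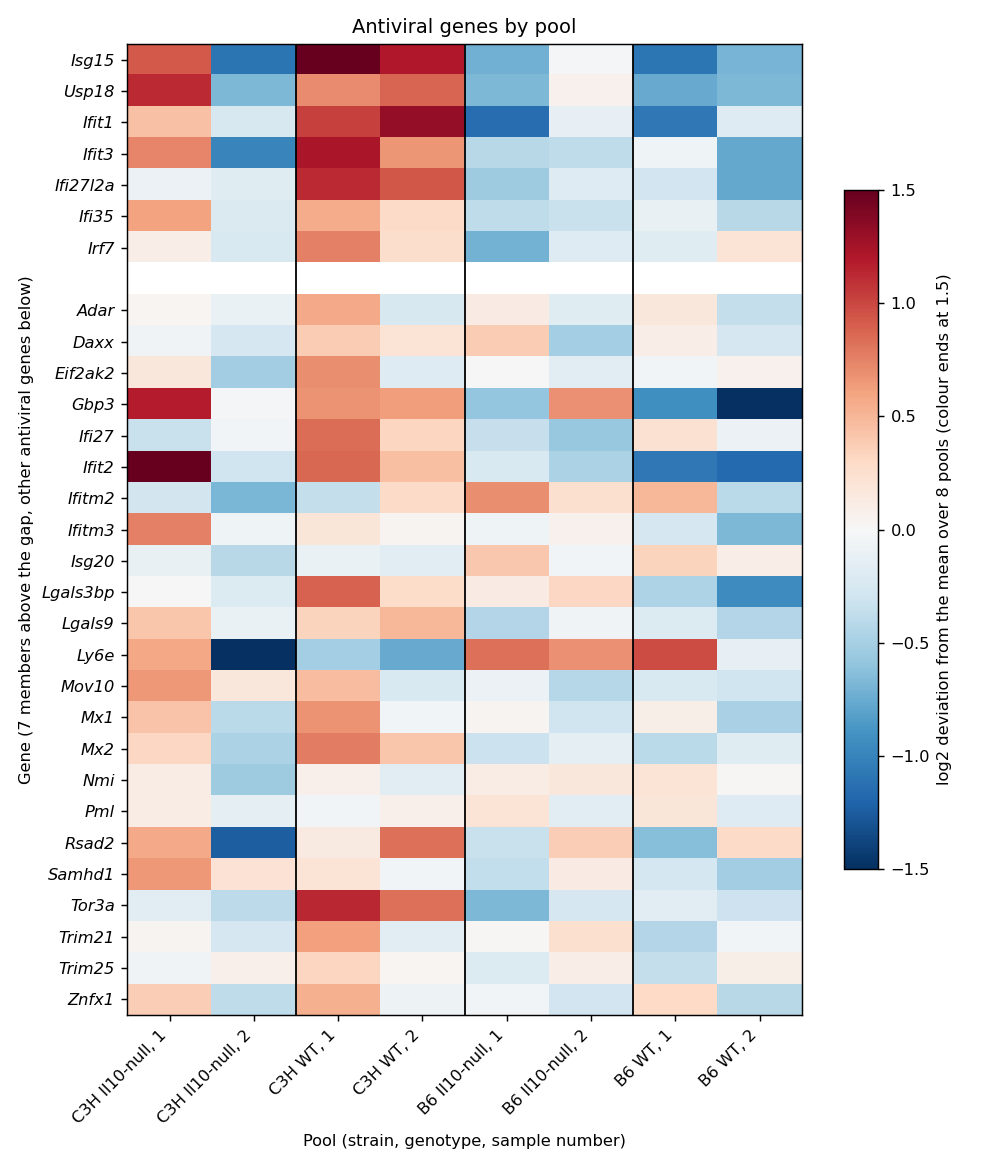
Log2 deviation of each gene from its mean over the 8 pools, for the 7 antiviral genes and 23 other type I interferon effectors (rows) in every pool (columns), with the colour scale ending at 1.5 in either direction. The C3H/HeJBir wild-type columns are the most uniformly high for the 7 genes.

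Of 5 genes of Isg15 attachment and removal on the array, Isg15 and Usp18 are given above. Of the others 2 were tested, with none called. Uba7, which activates Isg15, differed by 0.33 between wild-type strains and by 0.25 between Il10-null and wild type in C3H/HeJBir, and the ligase Trim25 by 0.31 and -0.16. Of 7 negative regulators of interferon and cytokine signalling, 1 is Usp18, given above, with a C3H/HeJBir genotype difference of -0.57. Besides Usp18, 5 were tested and none was called. All 5 had a positive Il10-null minus wild-type difference in C57BL/6J (median 0.32) and 4 of 5 in C3H/HeJBir (median 0.17). Socs1, which inhibits Jak kinases, read 311 and 85.2 in C3H/HeJBir Il10-null pools, against 68.1 and 78.0 in C3H/HeJBir wild type. Its high value stood in the sample 1 pool alone. Socs3, an inhibitor of cytokine receptor signalling, read 290 and 133 in C3H/HeJBir Il10-null pools, against 22.6 and 96.4 in C3H/HeJBir wild type, and had the most positive interaction of this list at 1.13 ± 0.97 (limma adjusted p = 1.00). Ptpn6, a phosphatase of immune receptors, had one of -0.63 ± 0.58 with overlapping pools in both strains.

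A list of 22 interferon gamma genes held genes that it mainly induces, the ligand gene Ifng and the receptor genes Ifngr1 and Ifngr2. Of the 22 genes 18 were on the array and 17, with both receptor genes among them, were tested, with none called. Between wild-type strains they resembled the antiviral genes: 16 of 17 were higher in C3H/HeJBir, with a median of 0.77. Of the 17, 12 had no overlap on the higher side and 0 on the lower, against 14.0% and 17.0% of all tested probe sets. The interaction of these genes was below 0 for 14 of 17 (median -0.35), with a median of 0.58 in sample 1 and -1.63 in sample 2. In C3H/HeJBir the median genotype difference had the opposite sign to that of the antiviral genes. Between Il10-null and wild type in C57BL/6J 16 of 17 were above 0, with a median of 1.11 (0.42 in sample 1 and 1.52 in sample 2) where the 7 antiviral genes had 0.02. In C3H/HeJBir 15 of 17 were above 0, with a median of 0.51 (1.31 in sample 1 and 0.03 in sample 2) where the antiviral genes had -1.07. Their mean log2 deviation was 1.25 and -0.03 in C3H/HeJBir Il10-null pools, against -0.07 and -0.09 in C3H/HeJBir wild type. It was -0.14 and 0.65 in C57BL/6J Il10-null pools, against -0.79 and -0.80 in C57BL/6J wild type. The pools highest for the interferon gamma genes were thus a sample 1 and a sample 2 Il10-null pool, not the C3H/HeJBir wild-type pools. Irgm1, a GTPase that interferon gamma induces, read 154 and 43.4 in C3H/HeJBir Il10-null pools, against 55.5 and 64.9 in C3H/HeJBir wild type. It read 77.2 and 83.4 in C57BL/6J Il10-null pools, against 25.7 and 27.8 in C57BL/6J wild type. The guanylate-binding protein Gbp2 and the T cell attractant Cxcl9 had Il10-null minus wild-type differences of 0.75 and 1.24 in C3H/HeJBir and of 1.60 and 2.02 in C57BL/6J, with pools that did not overlap in C57BL/6J.

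The 10 probe sets whose log2 values followed the mean of the 7 genes most closely over the 8 pools had Pearson correlations of 0.926 to 0.979, where the median over 6721 probe sets was -0.02 and the 95th percentile 0.612. They read Ighg3, Mx2, Gpn2, Igkv4-91, Igkv8-19, Jchain, Lgals9, Ctse, Ighm and Igkv6-23. Of these, 5 are immunoglobulin genes, and Jchain joins the subunits of secreted immunoglobulins. Ighg3 read 292 and 31.5 in C3H/HeJBir Il10-null pools, against 437 and 657 in C3H/HeJBir wild type. It read 13.1 and 40.6 in C57BL/6J Il10-null pools, against 17.7 and 14.3 in C57BL/6J wild type, a wild-type strain difference of 4.34 (limma adjusted p = 0.0934). Mx2, an antiviral GTPase, read 61.9 and 31.3 in C3H/HeJBir Il10-null pools, against 89.2 and 67.4 in C3H/HeJBir wild type. It read 36.0 and 42.2 in C57BL/6J Il10-null pools, against 33.4 and 40.8 in C57BL/6J wild type. Their likeness in group order was fixed by this choice.

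Markers of other cell types were read beside these values, and none of those on the array was at 0. The summed intensity of 5 B and plasma cell markers was 3737 and 1292 in C3H/HeJBir Il10-null pools, against 2912 and 3024 in C3H/HeJBir wild type. It was 871 and 1592 in C57BL/6J Il10-null pools, against 1480 and 774 in C57BL/6J wild type. This sum, made up mostly of Ighm and Jchain, was high in the pools where the antiviral genes were high. Jchain was itself picked above for likeness to the 7 genes, as was another probe set of Ighm. Cd79b was also highest in sample 1 of C3H/HeJBir Il10-null (96.6). Cd79a read 29.6 in that pool, against 97.2 and 113 in C3H/HeJBir wild type. Ms4a1 was highest in sample 2 of C57BL/6J Il10-null (98.0). The part of this sum in the differences of the antiviral genes was not tested. Of 7 markers of plasmacytoid dendritic cells, which secrete interferon alpha, 5 were on the array, without the defining Siglech and Bst2, and their sum was 969 and 526 in C3H/HeJBir Il10-null pools, against 642 and 517 in C3H/HeJBir wild type. In C57BL/6J it was 600 and 542 in Il10-null pools, against 580 and 406 in wild type. Ly6d (262), Tcf4 (168) and Irf8 (466) were highest in sample 1 of C3H/HeJBir Il10-null. Ccr9 was lowest there (8.23), and Spib was highest in sample 2 of C57BL/6J wild type (105). The sum of 8 neutrophil markers, of which 3 passed the filter, was 3224 in sample 1 of C3H/HeJBir Il10-null and 639 to 1328 in the other pools. Ly6g made up most of it in every pool. In that sample 1 pool Ly6g (2262), S100a8 (581), S100a9 (173), Ltf (82.5) and Camp (94.7) were each at their highest. Mpo (8.21) was at its lowest there, and Ngp and Elane were not at their highest. The sum of 8 macrophage markers, of which 6 passed the filter, ran from 1105 to 1717. That of 10 T and NK cell markers, of which only 3 passed, ran from 249 to 438. The highest value of both sums was in that same sample 1 pool. Among macrophage markers, Adgre1, Lyz2 and C1qa were highest in that pool, and Cd68 and C1qc were lowest. Among T and NK cell markers, Cd3e, Cd4, Gzma and Gzmb were highest there, and Cd3g was lowest. The sum of 8 smooth muscle markers was lowest in that pool (9693, against 11890 to 17320 in the other pools), as was that of 7 fibroblast markers (3123, against 4497 to 6027). The sum of 5 exocrine pancreas markers was highest there (4211, against 1030 to 3002). Prss2, a trypsinogen, read 1107 there against 4.69 to 321, and Ctrb1 and Cel were also at their highest. Cela1 (1462) and Cela2a (186) were highest in sample 1 of C57BL/6J Il10-null. The sum was higher in sample 1 than in sample 2 in every group but C3H/HeJBir wild type. The part of these cells and of pancreatic RNA in the antiviral gene values of sample 1 of C3H/HeJBir Il10-null was not tested. The sum of 14 epithelial markers ran only from 61130 to 68810.

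**Figure D4:**
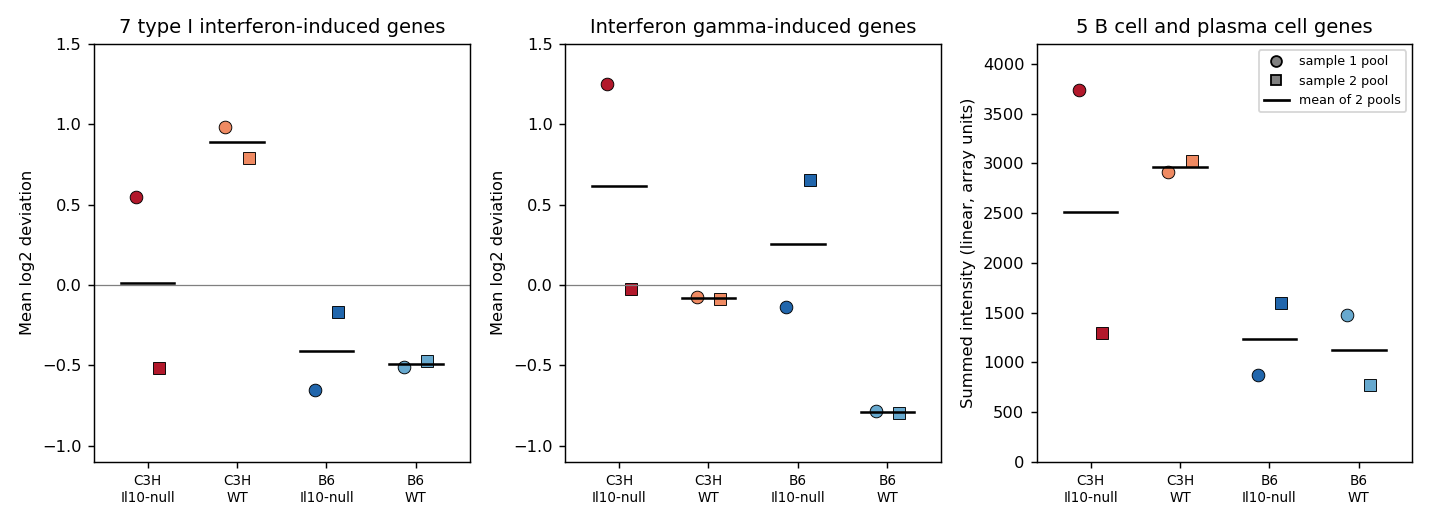
For every pool, the panels give the mean log2 deviation of the 7 antiviral genes, the same mean for 17 genes of the interferon gamma list, 2 of them receptor genes, and the summed intensity of 5 B and plasma cell markers, with circles for sample 1 and squares for sample 2. The antiviral genes peak in C3H/HeJBir wild type (0.99 and 0.79), the interferon gamma genes in sample 1 of C3H/HeJBir Il10-null (1.25), and the B and plasma cell sum is high in 3 C3H/HeJBir pools (2912 to 3737).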

How the data were processed

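RNA of 8 colon pools was measured on Affymetrix MG_U74Av2 arrays. The values deposited by the authors are linear intensities, 1 per probe set, from 0.03 to 12860. For their summary algorithm, background correction and scaling target, nothing is stated in the labels or files. Their 2%-trimmed means differed by a ratio of 1.01 between arrays, under the limit of 1.1, so they were used unchanged. Of the probe sets, 10833 had 1 symbol in the platform annotation, 396 several and 1193 none.

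Intensities were analysed as log2(intensity + 11.07), where the constant was the 20th percentile over all arrays. Probe sets whose mean reached 37.0, the 40th percentile, were tested. Using limma 3.58.1 (lmFit, eBayes; R 4.3.3), a model of 4 group means over all pools gave 5 two-sided comparisons, adjusted by Benjamini-Hochberg over 7454 probe sets. The fit was tested on simulated data. Groups came from the sample labels.

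The sample number was taken from the labels. Deviations of same-numbered pools from their group means correlated at 0.198 to 0.332 over the 6 pairs of groups, and sample 2 pools shared a hybridisation day per the experiment files, so an alternative fit carried the number as a block.

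The genes and lists were chosen with earlier results of these data known. A gene was read by its brightest probe set. Named pathway genes were any that passed a comparison, the 3 per list with the largest interaction, and Irf9, Ifnar1 and Ifnar2. An item of the pathway is not reported here. Genes most like the 7 were the 10 probe sets with the highest correlation to their mean. Alternatives changed the constant (2.76 and 56.7), the filter (none, 60th percentile), scaling, moderation, blocks, the fitted groups, averaging of probe sets and the pools included.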

Additional observations from a re-analysis of the deposited data

Results flagged for a closer look

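Of 35 genes checked, the 7 antiviral genes and the others that the naming rules picked, 6 had opposite signs in the strains. For these, Il10-null was set against wild type, sample number by sample number. Both pools of one strain differed one way and both pools of the other the opposite way. The naming rules favoured genes with a large interaction or a likeness to the 7. The share of all tested probe sets with this sign pattern was not counted, so the 6 are a description and show no excess. Isg15 had differences of -0.58 and -2.29 in C3H/HeJBir and 0.37 and 0.67 in C57BL/6J, and its interaction was -1.96 ± 0.82 (limma adjusted p = 1.00). Lgals3bp had -0.88 and -0.47 in C3H/HeJBir and 0.58 and 1.25 in C57BL/6J, with an interaction of -1.59 ± 0.41 (limma adjusted p = 1.00). Ifih1 had -0.27 and -0.59 in C3H/HeJBir and 0.31 and 0.16 in C57BL/6J, with an interaction of -0.67 ± 0.35 (limma adjusted p = 1.00). Among the genes chosen for likeness to the 7, Mx2 had an interaction of -0.73 ± 0.43, Gpn2 one of -0.39 ± 0.32 and Ighm one of -1.81 ± 0.82 (limma adjusted p = 1.00 each), with the Il10-null pools lower in C3H/HeJBir and higher in C57BL/6J. For Ighm this held for a dim _f_at probe set (12.3 to 303). A brighter Ighm probe set read 2900 and 862 in C3H/HeJBir Il10-null pools, against 2079 and 2101 in C3H/HeJBir wild type. It read 536 and 1059 in C57BL/6J Il10-null pools, against 971 and 442 in C57BL/6J wild type. Its differences thus changed sign between sample numbers in both strains. None of these interactions passed after adjustment over the tested probe sets.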

How the results depend on the processing

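Over 658 recomputed values of the 7 genes, 630 kept their direction and their side of the threshold, 21 reversed direction and 7 came to pass the threshold (Ifi27l2a and Isg15 between wild-type strains). With the replicate block on the sample number, the array-wide calls were 31 between wild-type strains, 23 between Il10-null strains and 1 for Il10 in C3H/HeJBir, and the block changed no call of the 7 genes. With a block on the hybridisation day, Ifit1 (-0.21) and Ifit3 (-0.084) reversed in C57BL/6J. The array-wide calls between wild-type strains, 30 in all, became 53 with the 50th-percentile constant, 51 with trended moderation, 49 with only the compared groups and 19 with the day block. They were 8 and 9 without C3H/HeJBir wild-type sample 1 or 2, and 2 without either C57BL/6J wild-type pool, within a range of 2 to 39. Between Il10-null strains the 22 calls became 45 with the 50th-percentile constant, 45 with trended moderation, 14 without a filter, 14 with averaged probe sets, 12 with only the compared groups and 6 with the day block. They ranged from 4 to 34 without a pool, with 34 without C3H/HeJBir Il10-null sample 2 and 8 and 4 without C57BL/6J Il10-null sample 1 or 2. The 1 call for Il10 in C3H/HeJBir became 0 with the 5th-percentile constant, no filter, a common median, the day block, only the compared groups or averaged probe sets. It became 0 to 7 without a pool, with 7 without C3H/HeJBir Il10-null sample 2. The 0 calls for Il10 in C57BL/6J became 1 with the 50th-percentile constant, the 60th-percentile filter or trended moderation. The median of the 7 genes between wild-type strains was 1.03 with the 50th-percentile constant. Leaving out a pool gave medians of -1.41 to -0.41 for Il10 in C3H/HeJBir, -1.42 to -0.23 for the interaction and 0.14 to 1.07 between Il10-null strains. Leaving out a pool also reversed some single genes. For Il10 in C57BL/6J the ranges were -0.50 to 0.51 for Ifit1, -0.34 to 0.38 for Ifit3, -0.075 to 0.41 for Ifi27l2a and -0.25 to 0.058 for Ifi35. For Il10 in C3H/HeJBir they were -0.64 to 0.18 for Ifi35 and -1.47 to 0.32 for Usp18. For the interaction they were -0.55 to 0.28 for Ifi35 and -0.38 to 0.14 for Irf7. Between Il10-null strains they were -0.72 to 1.30 for Isg15, -0.59 to 1.13 for Ifit3 and -0.37 to 1.43 for Usp18. The cause of these changes was not tested. The interaction needs all groups, so it was not fitted on fewer. No detection calls were used, and the added constant of 11.07 is a sizeable share of dim values such as those of Ifit3.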
